A study of Mus musculus with 8 samples.

Results

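Transcripts of 10 genes of the granulocyte-monocyte pathway were examined in Lin-Sca1+Kit+ (LSK) cells of Jmjd6 KO and wild type mice. The genes were taken by their symbols, Mpo, Elane, Prtn3, Ctsg, Ms4a3, Cebpa, Cebpe, Irf8, Gfi1 and Spi1, and all 10 were found among the 26146 genes of the deposited count table. All 10 also passed the filter on low counts, which left 13439 genes for testing. LSK cells are the bone marrow fraction, lacking lineage markers and carrying Sca1 and Kit, in which blood stem cells and multipotent progenitors are found. RNA of sorted LSK cells was sequenced as polyA RNA from 4 wild type and 4 Jmjd6 KO mice, with 1 library per mouse. In KO mice a Cre recombinase acting in blood lineages targeted floxed Jmjd6 alleles. The labels do not name the Cre driver, the age or sex of the mice, or whether the wild type mice carried Cre or floxed alleles.

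Neutrophils and monocytes arise from a shared granulocyte-monocyte progenitor. As progenitors enter this path they begin to transcribe the enzymes of the azurophil (primary) granule, the first granule a neutrophil makes, and most stem and multipotent cells carry little of this RNA. Entry and branch choice are set by transcription factors: PU.1 (Spi1) and C/EBP alpha (Cebpa) open the path, GFI1 and C/EBP epsilon (Cebpe) favour granulocytes, and IRF8 favours monocytes and dendritic cells. Of the granule genes, Mpo encodes myeloperoxidase, which makes hypochlorous acid, and Elane, Prtn3 and Ctsg encode the serine proteases neutrophil elastase, proteinase 3 and cathepsin G. Ms4a3 encodes a membrane protein that marks granulocyte-monocyte progenitors.

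Elane and Prtn3 are neighbours on the plus strand of chromosome 10, from 79886247 to 79888215 and from 79874476 to 79883174 (mm10, GENCODE M21), with 3073 bases between them. Ctsg spans bases 56099881 to 56102574 of chromosome 14 (minus strand), among mast cell protease and granzyme genes. Mpo lies on the plus strand of chromosome 11 from 87793581 to 87804413, and Ms4a3 spans bases 11629496 to 11640851 of chromosome 19 (minus strand). The 5 fate genes lie apart from these and from each other, Cebpa on chromosome 7 (35119293 to 35121928, plus strand), Cebpe on chromosome 14 (54710360 to 54712174, minus strand), Irf8 on chromosome 8 (120736358 to 120756694, plus strand), Gfi1 on chromosome 5 (107716657 to 107726036, minus strand) and Spi1 on chromosome 2 (91082390 to 91115756, plus strand).

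The promoter sequences of the granule genes are shown first, with motifs that were chosen after the values were seen. RefSeq promoter windows (GRCm38.p6, from 250 bases before to 50 bases after the annotated start) were at hand for 8 of the 10 members, and Cebpe and Spi1 had none. Capitals mark GAGGAA, a core that PU.1 and related ETS factors bind, searched on both strands. Each stretch begins 250 bases before the RefSeq start and ends before the first exon base that GENCODE annotates. The Mpo stretch is chr11:87793534-87793580 (plus strand), that of Elane chr10:79886062-79886246 (plus), that of Prtn3 chr10:79879417-79879613 (plus) and that of Ctsg chr14:56102575-56102824 (minus). The Prtn3 stretch lies inside the span of the gene, because the GENCODE gene begins further upstream than the RefSeq start used here.
Mpo: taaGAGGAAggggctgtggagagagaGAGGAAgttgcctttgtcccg
Elane: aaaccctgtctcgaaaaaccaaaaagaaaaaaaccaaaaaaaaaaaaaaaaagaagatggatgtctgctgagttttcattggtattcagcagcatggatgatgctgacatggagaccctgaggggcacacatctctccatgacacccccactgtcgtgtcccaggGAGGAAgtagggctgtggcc
Prtn3: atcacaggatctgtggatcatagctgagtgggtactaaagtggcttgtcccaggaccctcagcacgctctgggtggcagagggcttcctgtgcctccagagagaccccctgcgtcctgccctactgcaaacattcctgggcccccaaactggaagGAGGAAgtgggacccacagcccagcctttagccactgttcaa
Ctsg: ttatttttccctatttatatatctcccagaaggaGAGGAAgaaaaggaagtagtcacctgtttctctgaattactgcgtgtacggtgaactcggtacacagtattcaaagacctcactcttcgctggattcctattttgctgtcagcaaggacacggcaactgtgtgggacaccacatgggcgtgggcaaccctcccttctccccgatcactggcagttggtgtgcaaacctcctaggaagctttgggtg

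Counted from the RefSeq start, in Elane and Prtn3 the letters begin 85 and 95 bases before the start, in Ctsg 216 bases before it, and in Mpo they occur 2 times, 247 and 224 bases before it. In Ms4a3 they lie after the start, directly beside the C/EBP letters TTGCNNAA, within chr19:11640802-11640822 (minus strand), where capitals mark both motifs.
Ms4a3: cttgctGAGGAATTGCACAAa
GAGGAA was present in the windows of all 5 granule genes and in 0 of the 3 fate genes with a window, Cebpa, Irf8 and Gfi1, taking the first window listed for each gene. Of 27025 mouse promoter windows of the same length, 28.3% held it. TTGCNNAA was in 1 of the 5 granule windows and in that of Gfi1, against 10.8% of all windows. The MYB letters AACNG were in 4 of the 5 granule windows and all 3 fate windows, against 80.4%, and the RUNX letters TGNGGT in the Ctsg window alone among the 8, against 45.6%. In Gfi1 a match of AACNG overlaps that of TTGCNNAA. These matches describe the letters only, and the data hold no measurement of factor binding.

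**Figure D1:**
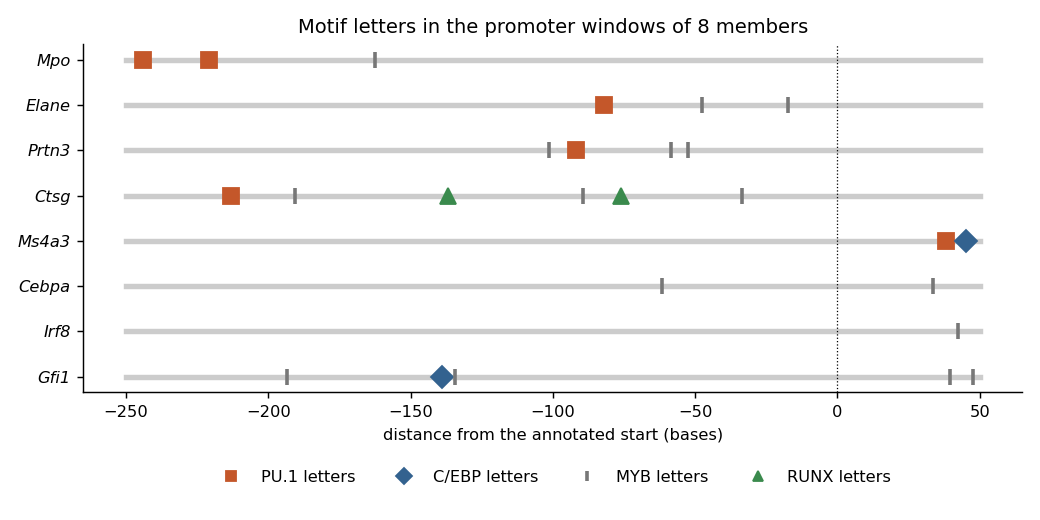
Positions of the letters GAGGAA (PU.1), TTGCNNAA (C/EBP), AACNG (MYB) and TGNGGT (RUNX) in the promoter windows of 8 members, by the distance in bases of the match's centre from the annotated start, either strand. The squares for GAGGAA appear in the 5 granule genes, Mpo to Ms4a3, and in none of Cebpa, Irf8 and Gfi1.

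The libraries held between 9344779 and 15079960 counts. Jmjd6 itself stood at 52.5, 63.7, 54.6 and 63.7 CPM (read counts relative to the library size after TMM scaling) in wild type replicates 1 to 4 and at 28.7, 28.1, 30.7 and 27.5 CPM in KO replicates 1 to 4, and fell by 1.03 on the log2 scale (adjusted p = 0.0381 by the edgeR test). The KO mean was thus 0.490 times that of wild type, a partial loss of the transcript. The labels do not say which exons were floxed, so reads from outside them may be among those counted. Without wild type replicate 1 the log2 fold change of Jmjd6 was -1.06, and it was not called (adjusted p = 0.0986 by edgeR). Kit, Cd34 and Flt3, defining genes of LSK cells and their multipotent members, were abundant in every library, Kit between 416 and 508 CPM. Some libraries stood apart. KO replicate 3 scored 83.9 on the first principal component against -28.0 to 9.41 in the others. KO replicate 3 and wild type replicate 4 had 0 counts of 4 Y-linked genes where the other 6 libraries had at least 3660. Xist, an RNA of female cells, stood at 893 CPM in KO replicate 3 and 1551 CPM in wild type replicate 4. In the other 6 libraries Xist was at most 4.93 CPM. In wild type replicate 1 Car1, an erythroid transcript, stood at 339 CPM, against at most 41.2 CPM in any other library, and it is the library on which most results below turn, so they are given with and without it.

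The comparison asked whether granule and fate transcripts depended on the Jmjd6 genotype. With all 8 libraries 0 of the 10 genes were called at an adjusted p under 0.05 in the quasi-likelihood test of edgeR, where 0.0595% of all tested genes were. An unadjusted p under 0.05 was reached by 0 of the 10, against 6.06% of all genes, and 0 of the 10 had groups that did not overlap, against 4.19%. Limma voom with sample weights also called 0 of the 10, against 0.231% of all genes, with an unadjusted p under 0.05 for Ctsg (0.0396). DESeq2 called 0 of the 10, against 0.491%, and gave no p for Elane, Ctsg and Ms4a3. Other edgeR settings called between 0.0145% and 0.0608% of all genes at that threshold, and 0 members with 1 exception given below for Ctsg. Cebpa, Irf8, Gfi1 and Spi1 had log2 fold changes between -0.12 and 0.18, and the 5 granule genes and Cebpe had one very high wild type library. Without wild type replicate 1, 3 of the 10 genes, Ctsg, Ms4a3 and Mpo, were higher in every KO library than in every remaining wild type library, against 4.06% of all tested genes, and the other 7, the granule genes Elane and Prtn3 among them, overlapped. The removed library is the highest of its group in all 5 granule genes, so leaving it out lowers their wild type means by construction. It was singled out with earlier results of these data known. In bulk RNA, more cells of a type and more RNA per cell cannot be told apart.

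**Figure D2:**
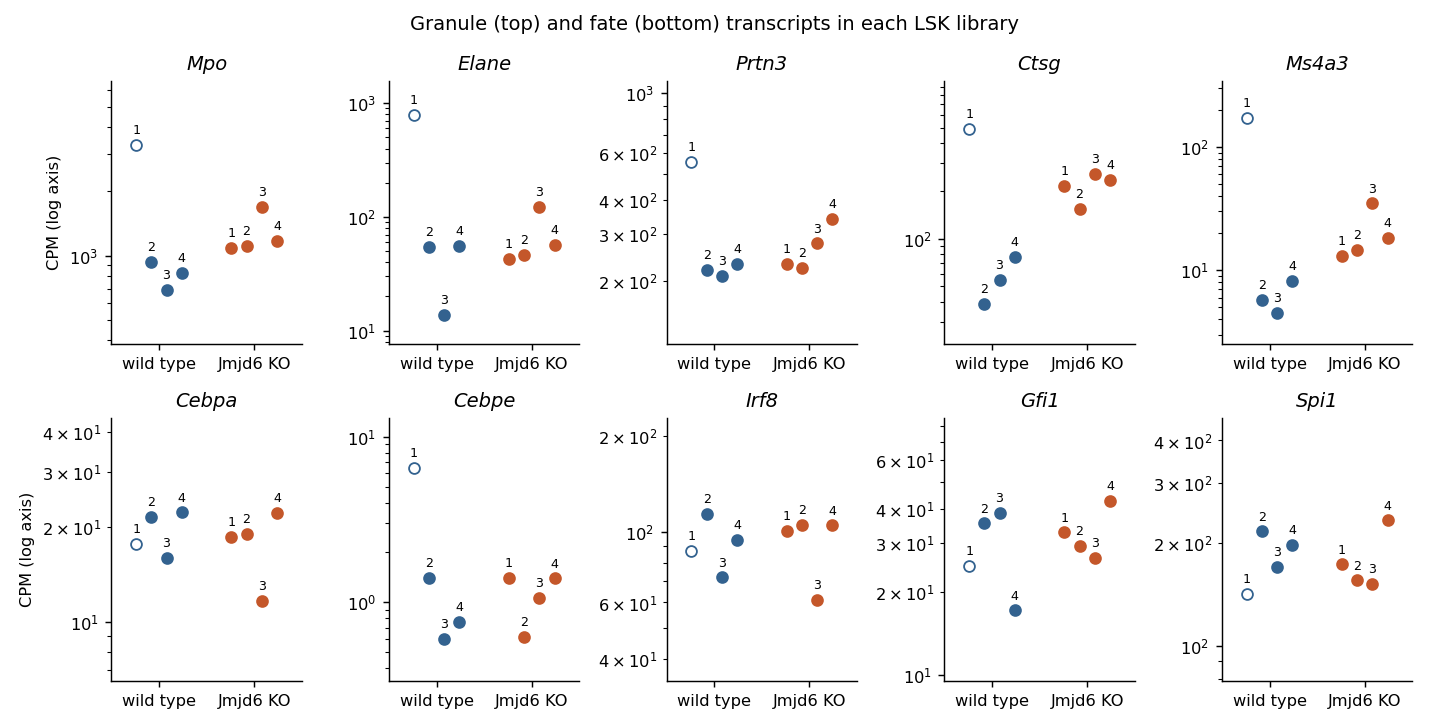
CPM on a log axis for each of the 10 genes, 1 point per library with its replicate number; wild type in blue, with replicate 1 as an open circle, and Jmjd6 KO in orange. Wild type replicate 1 is the highest library in all 5 granule genes, and without it the groups separate for Mpo, Ctsg and Ms4a3.

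Mpo, the most abundant of the 10, stood at 3293, 935, 691 and 828 CPM in wild type replicates 1 to 4 and at 1087, 1112, 1692 and 1166 CPM in KO replicates 1 to 4. Wild type replicate 1 thus held 4.03 times the mean of the other wild type libraries, and 0.319% of all its counts were of Mpo. The group means were 1436 ± 1242 CPM for wild type and 1264 ± 287 CPM for KO (SD, n = 4), and KO minus wild type was -0.18 on the log2 scale (SE 0.43, adjusted p = 0.942 by edgeR). Without wild type replicate 1 the wild type mean was 818 ± 122 CPM (n = 3), the groups no longer overlapped, and the log2 fold change was 0.65 (SE 0.20, adjusted p = 0.621 by edgeR). The sign of the Mpo difference also turned with all 8 libraries kept, to 0.14 when a block for the replicate number was added and likewise under limma voom.

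Elane stood at 785, 54.3, 13.7 and 56.0 CPM in wild type replicates 1 to 4 and at 42.5, 46.0, 123 and 56.5 CPM in KO replicates 1 to 4. Wild type replicate 1 exceeded the mean of the other 3 wild type libraries 19.0-fold, and the remaining libraries of both genotypes were intermixed, wild type replicate 3 being the lowest and KO replicate 3 the highest. For KO against wild type it was -1.76 on the log2 scale with all libraries (SE 0.96, 95% interval -3.85 to 0.33, adjusted p = 0.833 by edgeR) and 0.71 without wild type replicate 1 (SE 0.49, adjusted p = 0.860 by edgeR). With all 8 libraries kept, limma voom gave -0.0323 and the replicate block gave -0.22. Elane was the granule gene with the lowest KO to wild type ratio of means, 0.294, yet its groups overlapped with and without that library.

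Prtn3, which neighbours Elane, varied least of the granule genes. Its level was 555, 220, 210 and 231 CPM in wild type replicates 1 to 4 and 233, 224, 276 and 340 CPM in KO replicates 1 to 4. The KO difference was -0.18 on the log2 scale (SE 0.30, adjusted p = 0.916 by edgeR), and 0.30 (SE 0.18, adjusted p = 0.850 by edgeR) without wild type replicate 1, with overlap both times. Prtn3 shares 159 exonic bases with Plppr3 on the opposite strand and Mpo shares 512 with Gm11505. How strand was treated in counting is unknown here, so such reads may not have been told apart. Plppr3 stood at 223 CPM in wild type replicate 1, inside the 205 to 281 CPM of the other wild type libraries.

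Ctsg gave the clearest separation once wild type replicate 1 was set aside. It stood at 491, 39.0, 54.8 and 77.1 CPM in wild type replicates 1 to 4 and at 214, 154, 255 and 233 CPM in KO replicates 1 to 4. All 4 KO libraries lay above the other 3 wild type libraries and below wild type replicate 1. Over all libraries its log2 fold change was 0.37 (SE 0.65, adjusted p = 0.920 by edgeR), 1.12 by limma voom with sample weights (adjusted p = 0.474) and 1.24 with the replicate block in edgeR (adjusted p = 0.962). Without wild type replicate 1 the KO mean of 214 ± 43.3 CPM was 3.76 times the wild type mean of 57.0 ± 19.2 CPM, with a log2 fold change of 1.92 (SE 0.27, 95% interval 1.33 to 2.51). Its p then ranked 4th of 13782 genes, and the adjusted p was 0.0774 by edgeR, which did not pass, and 0.0130 by limma voom and 3.86e-09 by DESeq2, which did. Without both wild type replicate 1 and KO replicate 3, chosen after seeing the data, Ctsg was called (log2 fold change 1.81, adjusted p = 0.0434 by edgeR), where 0.0297% of all genes were. Over the other edgeR settings its adjusted p ran up to 0.999.

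Ms4a3, the progenitor marker, stood at 171, 5.79, 4.52 and 8.20 CPM in wild type replicates 1 to 4 and at 13.1, 14.6, 34.9 and 18.2 CPM in KO replicates 1 to 4. The picture was that of Ctsg at a lower level: wild type replicate 1 was 27.8 times the mean of the other wild type libraries, and every KO library exceeded those 3. The log2 fold change went from -1.22 (SE 0.99, adjusted p = 0.848 by edgeR) to 1.72 (SE 0.39, adjusted p = 0.379 by edgeR) without wild type replicate 1, a change from lower to 3.27-fold higher in KO means. The 3 remaining wild type libraries rested on 87, 45 and 130 counts and the KO libraries on 142 to 457 counts.

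Of the 5 granule genes, 3 did not overlap between groups without wild type replicate 1, all higher in KO, where 4.06% of all tested genes did so. The same 3 had an unadjusted p under 0.05 in that direction, against 2.84% of all genes. By edgeR 0 passed the adjusted threshold, against 0.0145% of all genes in either direction. Jmjd6 itself did not pass it without that library (adjusted p = 0.0986 by edgeR), so a count of 0 there says little. On the same 7 libraries DESeq2 called Ctsg and Ms4a3, at adjusted p of 3.86e-09 and 0.00437, where it called 0.530% of all genes. Limma voom called Ctsg, at 0.0130, where it called 0.131%. Wild type replicate 1 was the highest wild type library in all 5 granule genes, against 28.8% of all tested genes. Leaving it out thus favours higher KO levels in these 5 by construction, and the shares over all genes are no like baseline. The median log2 fold change of the 5 granule genes was -0.18 with all libraries and 0.71 without wild type replicate 1, and that of all tested genes was 0.00 and 0.02. With all 8 libraries it was 0.14 both by limma voom and with the replicate block, so its sign depended on the model as well as on that library.

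**Figure D3:**
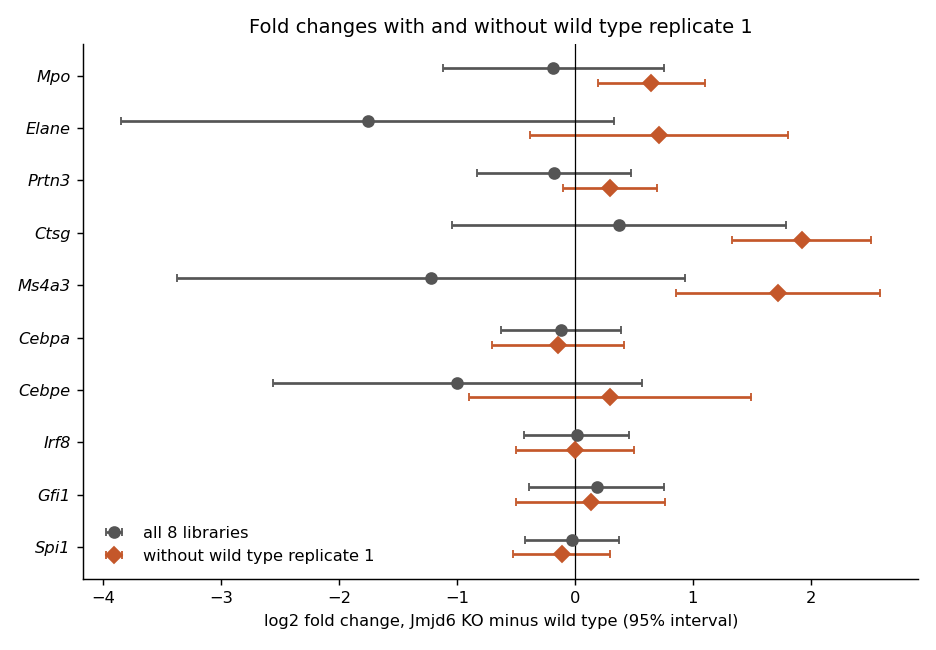
Log2 fold change of Jmjd6 KO minus wild type for each gene, with its 95% interval from the edgeR fit, over all 8 libraries (grey circles) and without wild type replicate 1 (orange diamonds). The estimates of Mpo, Elane, Prtn3, Ms4a3 and Cebpe cross from below to above 0, Ctsg moves from 0.37 to 1.92, and Cebpa, Irf8, Gfi1 and Spi1 stay near 0.

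Among the fate factors, Spi1 was the most abundant. PU.1, its product, is required for granulocyte and monocyte development. Spi1 stood at 142, 216, 171 and 197 CPM in wild type replicates 1 to 4 and at 173, 155, 152 and 233 CPM in KO replicates 1 to 4, with wild type replicate 1 the lowest of the 8. Its log2 fold change was -0.03 (95% interval -0.42 to 0.37, adjusted p = 0.983 by edgeR) and -0.11 without wild type replicate 1. The interval excludes a change of the size Ctsg showed without that library, in either direction.

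Cebpa, whose product drives entry into the granulocyte-monocyte path and activates granule genes, stood at 17.7, 21.6, 15.97 and 22.3 CPM in wild type replicates 1 to 4 and at 18.7, 19.0, 11.7 and 22.2 CPM in KO replicates 1 to 4. KO replicate 3 was the lowest library and the others overlapped. Cebpa gave a log2 fold change of -0.12 (95% interval -0.62 to 0.39, adjusted p = 0.931 by edgeR) and -0.15 without wild type replicate 1.

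Irf8 stood at 87.0, 114, 71.9 and 94.6 CPM in wild type replicates 1 to 4 and at 101, 105, 61.2 and 105 CPM in KO replicates 1 to 4. KO replicate 3 was again the lowest, and the other 3 KO libraries differed by less than 5 CPM. Irf8 gave a log2 fold change of 0.02 (95% interval -0.43 to 0.46, adjusted p = 0.992 by edgeR), with no fixed sign when single libraries were left out. Gfi1, a repressor that favours granulocytes over monocytes, stood at 24.9, 35.4, 38.6 and 17.2 CPM in wild type replicates 1 to 4 and at 32.8, 29.4, 26.6 and 42.7 CPM in KO replicates 1 to 4. Its groups overlapped widely, with a log2 fold change of 0.18 (95% interval -0.39 to 0.75, adjusted p = 0.905 by edgeR).

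Cebpe was the exception among the fate factors, and it acts latest, when granulocytes mature. It stood at 6.52 CPM in wild type replicate 1 and at 1.40, 0.603 and 0.757 CPM in wild type replicates 2 to 4, and at 1.41, 0.617, 1.07 and 1.39 CPM in KO replicates 1 to 4. These levels rested on 59 counts in wild type replicate 1 and on 6 to 21 counts in every other library. Its log2 fold change was -0.996 (SE 0.72, adjusted p = 0.834 by edgeR) and 0.30 (SE 0.54, adjusted p = 0.941 by edgeR) without wild type replicate 1. Cebpe was thus high in the same library as the 5 granule genes, where Cebpa, Irf8, Gfi1 and Spi1 stood at 0.728 to 0.930 times the mean of the other wild type libraries. Over the 5 fate factors the median log2 fold change was -0.03, and 0.00 without that library.

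The spread between the 4 wild type mice was wide for the granule genes, mostly through wild type replicate 1. Ranked by the SD of log2 CPM among the 4 wild type libraries, Elane (2.44) and Ms4a3 (2.42) were 22nd and 23rd of 13439 genes, Ctsg (1.63) 85th, Cebpe (1.41) 151st, Mpo (1.03) 390th and Prtn3 (0.67) 1231st. Without wild type replicate 1 the SD was 1.16 for Elane, 0.42 for Ms4a3, 0.49 for Ctsg, 0.53 for Cebpe, 0.22 for Mpo and 0.0705 for Prtn3. With all 4 libraries, Irf8, Spi1 and Cebpa were 6322nd, 6664th and 7879th. Among the 4 KO libraries no member ranked above Elane at 1807th, with an SD of 0.70. Wild type replicate 1 exceeded the mean of the other wild type libraries by 4.80 on the log2 scale for Ms4a3, the 3rd largest gap of all tested genes, and by 4.49 for Elane, the 8th largest.

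The 5 granule genes were not raised in equal measure. The ratio of Ctsg to Prtn3 CPM was 0.177, 0.261 and 0.333 in wild type replicates 2 to 4 but 0.884 in wild type replicate 1 and 0.918, 0.687, 0.923 and 0.686 in KO replicates 1 to 4. The ratio of Elane to Prtn3 was 1.41 in wild type replicate 1 and between 0.0651 and 0.444 in the other 7 libraries. By the first ratio wild type replicate 1 lay with the KO libraries, and by the second it stood alone. The ratio of Ctsg to Elane was lowest in wild type replicate 1, at 0.626, and 0.717, 4.015 and 1.38 in wild type replicates 2 to 4. In KO it ran from 2.08 to 5.025, so wild type replicate 3 lay within the KO range. The ratio of Mpo to Prtn3 overlapped between groups, at 3.29 to 5.93 in wild type and 3.43 to 6.13 in KO. The ratio of Irf8 to Cebpa ran from 4.25 to 5.52 over all 8 libraries, and that of Irf8 to Gfi1 from 1.87 to 5.52, both extremes of the latter in wild type libraries.

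Divided by exon length, the KO levels ran in the order Mpo at 369 ± 83.9 CPM per kilobase, Ctsg at 207 ± 41.9, Prtn3 at 155 ± 30.6, Elane at 68.0 ± 38.2, Spi1 at 66.2 (56.3 to 86.5), Irf8 at 13.2 ± 3.01, Ms4a3 at 10.7 ± 5.31, Gfi1 at 10.3 ± 2.20, Cebpa at 6.78 ± 1.68 and Cebpe at 0.904 ± 0.299 (SD, n = 4). In this order Ctsg and Prtn3 overlapped between libraries, as did Elane and Spi1, and as did Irf8, Ms4a3, Gfi1 and Cebpa with their neighbours. In wild type replicates 2 to 4 the means of Ctsg, at 55.2 ± 18.6, and Ms4a3, at 3.27 ± 0.992, took lower places. That of Ctsg lay below Spi1 at 72.3 ± 8.50, and that of Ms4a3 below Cebpa at 7.56 ± 1.31. The mean of Elane, at 42.0 ± 24.4, was there also below Spi1, and below Ctsg. Libraries overlapped here too: Ctsg was at 74.65 in wild type replicate 4 and Spi1 at 63.3 in wild type replicate 3. In wild type replicate 2 Elane, at 55.2, was above Ctsg, at 37.7.

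**Figure D4:**
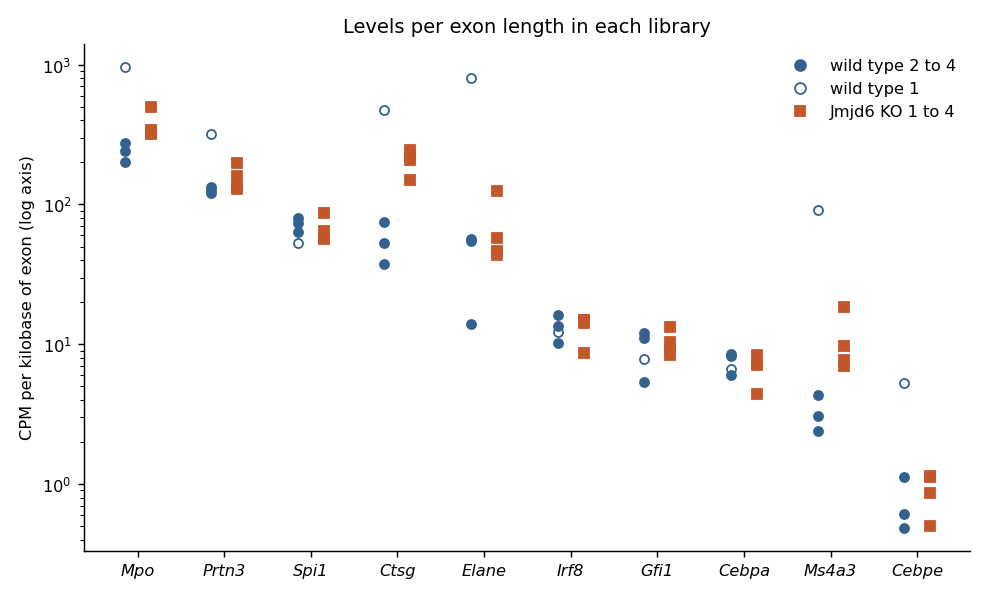
CPM per kilobase of exon on a log axis for each gene and library, ordered by the mean of wild type replicates 2 to 4; wild type in blue circles, with replicate 1 open, and Jmjd6 KO in orange squares. Mpo is highest and Cebpe lowest, and the Ctsg and Ms4a3 squares lie above the filled circles.

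Other genes of the pathway were taken from lists written with earlier results of these data known, and none of their tested genes passed edgeR's test over all genes, with or without wild type replicate 1. Of 12 genes that store, activate, inhibit or accompany azurophil proteins, all 12 were tested, 0 were called, and the median log2 fold change was 0.11. Without wild type replicate 1 the median was 0.33, and 10 of 12 lay above 0, against 53.2% of all genes. That library was the highest wild type library for 8 of the 12, against 28.8% of all tested genes, so leaving it out favours values above 0. Nkg7, a granule membrane protein gene, stood at 232, 189, 157 and 125 CPM in wild type replicates 1 to 4 and at 259, 267, 374 and 363 CPM in KO replicates 1 to 4, without overlap (log2 fold change 0.84, adjusted p = 0.392 by edgeR). Hp, which encodes haptoglobin, followed the granule genes, at 45.2 CPM in wild type replicate 1 and at most 9.38 CPM elsewhere (log2 fold change -1.59, and 0.998 without that library). Srgn, the proteoglycan that holds proteases in granules and the most abundant of the list, gave 0.09.

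Of 18 genes of later neutrophil granules and mature neutrophils, 7 passed the filter, 6 had a log2 fold change above 0, against 49.6% of all tested genes, and 0 were called; the median was 0.37, and 1.25 without wild type replicate 1. S100a8, which encodes a calcium-binding protein of neutrophils, stood at 84.9 CPM in wild type replicate 1, at 0.931 to 5.55 CPM in wild type replicates 2 to 4 and at 6.48 to 19.6 CPM in KO, its log2 fold change going from -0.99 to 1.72 without wild type replicate 1 (adjusted p = 0.870 and 0.656 by edgeR). Camp, the cathelicidin gene, ran from 0.904 to 1.32 CPM in wild type libraries and from 1.70 to 3.87 CPM in KO libraries, without overlap (log2 fold change 1.28, adjusted p = 0.741 by edgeR). The summed level of the list was 130 CPM in wild type replicate 1, 10.97 to 16.97 CPM in wild type replicates 2 to 4 and 19.7 to 49.9 CPM in KO, and Stfa2l1 was at 0 in all libraries.

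The myeloid receptor genes summed to 617 CPM in wild type replicate 1, 422 to 525 CPM in wild type replicates 2 to 4 and 497 to 537 CPM in KO. Of 10 tested, 3 lay above 0 and 0 were called, with a median of -0.09, and -0.06 without wild type replicate 1. Clec12a and Fcgr3, named after their values were seen, stood at 185 and 35.2 CPM in wild type replicate 1, 3.69 and 5.90 times the mean of the other wild type libraries. Csf3r, the G-CSF receptor gene, gave 0.24, and Cd33 gave -0.69, with adjusted p of 0.833 and 0.746 by edgeR. Of 15 monocyte and dendritic cell genes 12 were tested, 4 lay above 0 and 0 were called, with a median of -0.20, and 0.21 without wild type replicate 1. Ly6c2, a monocyte surface antigen gene, stood at 230 CPM in wild type replicate 1, at 5.52 to 12.4 CPM in wild type replicates 2 to 4 and at 19.5 to 27.2 CPM in KO. Its log2 fold change went from -1.48 to 1.21 without wild type replicate 1 (adjusted p = 0.833 and 0.455 by edgeR). Cd68, a lysosomal protein gene of macrophages, gave 0.73, and Tcf4, the most abundant of this list and a factor of plasmacytoid dendritic cells, gave -0.22.

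Of 18 factors that act with or beside the fate factors, 17 were tested, 6 lay above 0 and 0 were called, with a median of -0.06. Myb, which encodes a progenitor transcription factor, was the most abundant, at 292 to 310 CPM in wild type libraries and 259 to 409 CPM in KO libraries. Id1, an inhibitor of helix-loop-helix factors, gave 0.96, and Trib2, a pseudokinase gene whose product promotes the breakdown of C/EBP alpha, gave -1.26, with adjusted p of 0.786 and 0.746 by edgeR.

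Markers of other cell types moved in part with the granule genes. The summed eosinophil markers reached 33.1 CPM in wild type replicate 1 against 1.63 to 4.88 CPM in the other 7 libraries, and 1 of the 6 passed the filter. The summed erythroid markers were 1872 CPM in wild type replicate 1, 989 to 1090 CPM in wild type replicates 2 to 4 and 1024 to 1156 CPM in KO, with wild type replicate 1 the highest wild type library for 12 of 15 genes, against 28.8% of all tested genes. The summed mast cell and basophil markers were 97.3 CPM in wild type replicate 1, 13.6 to 48.0 CPM in wild type replicates 2 to 4 and 62.7 to 131 CPM in KO. Cpa3, the mast cell carboxypeptidase gene, gave the highest levels of that list (log2 fold change 1.31, adjusted p = 0.811 by edgeR). Markers of stem and LSK cells summed to 2965 CPM in wild type replicate 1, below the 3018 to 3648 CPM of wild type replicates 2 to 4 and the 2975 to 3258 CPM of the KO libraries. Lymphoid priming genes lay at 1094 CPM in wild type replicate 1, within the 994 to 1283 CPM of the other wild type libraries. Megakaryocyte markers, at 473 CPM, lay likewise within 438 to 579 CPM.

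Sums for mature B cells were 58.1 to 81.3 CPM in wild type libraries and 77.7 to 116 CPM in KO libraries, mostly Cd79b. The T and NK cell list was 191 to 308 CPM in wild type libraries and 351 to 472 CPM in KO, mostly Nkg7 and Lck, with Cd3e at no more than 0.0630 CPM. Tissue macrophage markers were 91.2 to 176 CPM in wild type libraries and 98.2 to 199 CPM in KO. Within that sum Vsig4, at low levels, stood at 0.2 to 1.20 CPM in wild type and 3.18 to 11.4 CPM in KO (log2 fold change 3.36, adjusted p = 0.149 by edgeR). It was the 1 gene of the 7 on that list without overlap between groups, against 4.19% of all tested genes. The part of any of these cell types in the granule results was not tested.

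**Figure D5:**
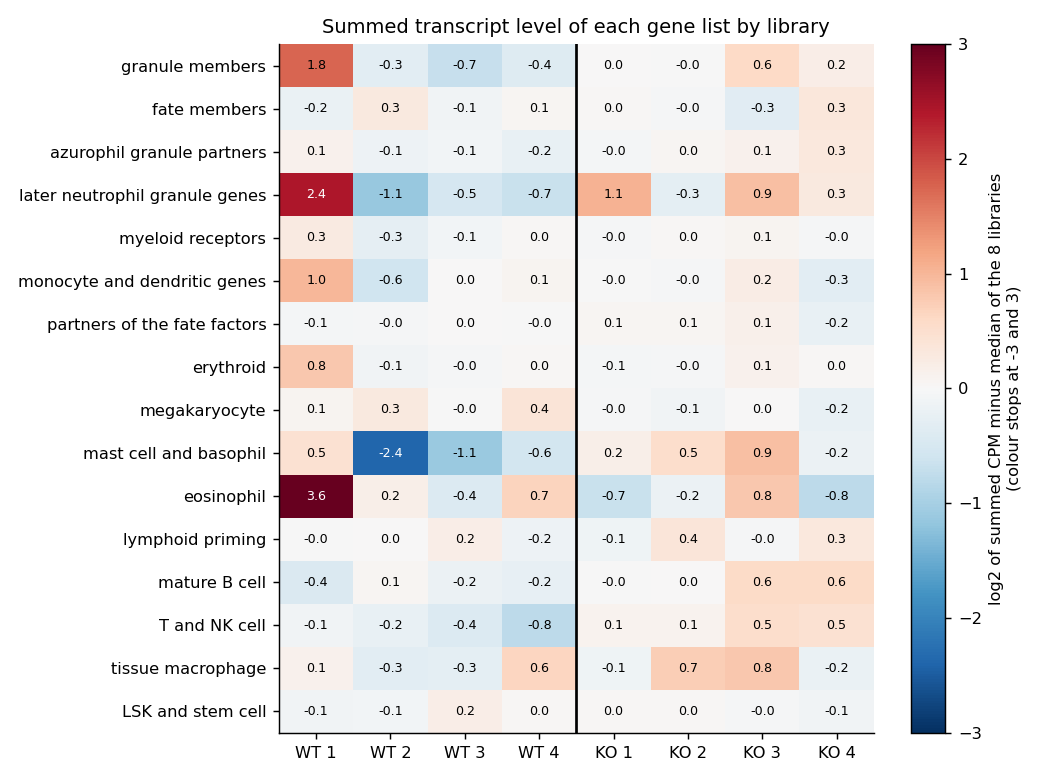
Summed CPM of each gene list in each library, as log2 minus the median of the 8 libraries (numbers in the cells; the colour scale stops at -3 and 3). Wild type replicate 1 is at 1.75 for the granule members and -0.19 for the fate members, and reaches 2.44 for later neutrophil granule genes and 3.56 for eosinophil markers.

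Within 100 kb of Prtn3, Elane, Ctsg or Ms4a3, 16 further genes were tested, and in wild type replicate 1 they stood at 0.607 to 2.70 times the mean of the other wild type libraries, 9 of them above 1 and 1, Oosp1 near Ms4a3, above 2. The 12 near Prtn3 or Elane ran from 0.792 to 1.81, with Fstl3 at 1.54, Arid3a at 1.43, Palm at 1.30, Ptbp1 at 1.02 and Plppr3 at 0.889. Prss57, a further neutrophil serine protease gene, was the highest of these 12, at 1.81, with a KO log2 fold change of -0.24 (adjusted p = 0.873 by edgeR). Near Ctsg the only tested gene was Mcpt8, a basophil protease gene, at 1.96 times that mean. It stood at 9.39, 4.39, 5.83 and 4.16 CPM in wild type replicates 1 to 4 and 10.9, 7.51, 14.6 and 16.9 CPM in KO replicates 1 to 4. Its log2 fold change was 1.08 (SE 0.34, adjusted p = 0.670 by edgeR), and 1.41 without wild type replicate 1.

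The genes whose log2 CPM profile over the 8 libraries lay nearest to the mean profile of the 5 granule genes were found among 10248 genes with a mean log2 CPM above 3, by the root mean square difference of centred values. They were Serpine2 (0.37), Gata1 (0.40), Igsf6 (0.41), Anxa3 (0.44), Aqp1 (0.45), Ltb4r1 (0.48), Mfsd2b (0.49), Ap3s1 (0.51), Rgcc (0.53) and Ly6c2 (0.54). Gata1, the transcription factor gene of erythroid, megakaryocyte and mast cells, stood at 46.8, 10.2, 7.43 and 17.2 CPM in wild type replicates 1 to 4 and at 21.3, 19.7, 34.4 and 22.3 CPM in KO replicates 1 to 4. As for Mpo, Ctsg and Ms4a3, its KO libraries lay above the 3 other wild type libraries. Gata1 was picked for likeness to the granule profile over these same libraries, so this is no separate result. Over the 7 libraries without wild type replicate 1 the nearest were Pilra (0.16), Gata1 (0.16), 6330418K02Rik (0.19), Bola1 (0.21), Thbd (0.22), Mfsd2b (0.23), Angptl4 (0.25), Gm13199 (0.25), Atpsckmt (0.25) and Nudt7 (0.26). Gata1 and Mfsd2b, a sphingosine-1-phosphate exporter gene of red cells and platelets, were in both groups of 10. The 7 libraries were also part of the search over 8, so the groups are not independent.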

How the data were processed

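RNA from LSK cells was sequenced for 4 wild type mice and 4 KO mice, 1 sample each per the labels. The deposited table holds raw counts per gene symbol. Reads were aligned with HISAT2 to mm10, per the submitters' processing notes. Versions, the read counter, gene models and strandedness were not given in the sources used here. Columns were matched to samples by genotype and number in their names. Any pair of replicates differed beyond sampling noise (chi-square per degree of freedom at least 5.20), so none was merged.

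The test was edgeR 4.0.16's quasi-likelihood test (R 4.3.3) over all genes, KO against wild type, no covariate, TMM scaling, filterByExpr (minimum count 10, minimum total 15) and Benjamini-Hochberg adjustment over all tested genes, called under 0.05. The common biological coefficient of variation was 27.8%. SEs are the log2 fold change divided by the square root of the F statistic. Log2 CPM used a prior count of 2. In simulated counts for this comparison with 13321 genes tested, 2.99%, 49.3% and 100% of genes changed 1.5-fold, 2-fold and 4-fold were called, and 0 with none changed; those draws have even spread, unlike the granule genes. DESeq2 1.42.0 and limma 3.58.1 voom were alternatives. Exon lengths and positions came from GENCODE M21 on mm10.

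Members and lists were chosen with earlier results of these data known, and motifs after the values were seen. Named genes were all members, Jmjd6, the 10 genes nearest in profile, and neighbours within 100 kb. Per list, the genes of largest and smallest log2 fold change and highest mean CPM were also named. Kit, Flt3, Cd3e, Cd48, Clec12a, Fcgr3 and Xist were named after their values were seen. Not all genes the rule gives are described.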

Additional observations from a re-analysis of the deposited data

Results flagged for a closer look

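Each of 22 groups of 4 libraries was examined, the 10 members and Jmjd6 in both genotypes. In 4 of them the gap from 1 library to its nearest neighbour, over the group's log2 CPM range, exceeded Dixon's 95% critical value. For a single group chance gives this about 1 time in 20. The genes share the same libraries, so the 22 groups are not independent and that rate is no like baseline. For Prtn3 and Ms4a3 the library was wild type replicate 1, high, at 0.900 and 0.839 of the range. For Mpo it was KO replicate 3, high at 1692 CPM, at 0.841. For Irf8 it was KO replicate 3, low at 61.2 CPM, at 0.922. KO replicate 3 was also the highest KO library for Elane, Ctsg and Ms4a3, but not for Prtn3. It was the lowest KO library for Cebpa, Gfi1 and Spi1 as well as Irf8, but not for Cebpe. It also had the lowest sample weight by limma voom, 0.213, and 0 counts of Y-linked genes. The part of these in its levels was not tested. Elane, Ctsg and Cebpe in wild type did not pass this value, and neither did Jmjd6.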

How the results depend on the processing

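The count of 0 called members held with other scaling (size factors of DESeq2, or library size alone), with no filter, with a CPM filter, the replicate block, limma voom, DESeq2, a threshold of 0.1, each library left out in turn (0 to 0) and the 6 libraries with Y-linked counts. With all 8 libraries DESeq2 gave no p for Elane, Ctsg and Ms4a3, so it could not have called these. The count of called members was 1, Ctsg, without wild type replicate 1 and KO replicate 3 together, a choice made after seeing the data. Without wild type replicate 1 alone it was 0 by edgeR, 1 by limma voom and 2 by DESeq2, both added after seeing the data. With single libraries left out, the granule median ran from -0.41 to 0.71 and the fate median from -0.18 to 0.07. With all 8 libraries the granule median was 0.14 both by limma voom and with the replicate block. Log2 fold changes ran from -0.41 to 0.65 for Mpo, -2.23 to 0.71 for Elane, -0.32 to 0.30 for Prtn3, 0.05 to 1.92 for Ctsg, -1.62 to 1.72 for Ms4a3 and -1.32 to 0.30 for Cebpe, the highest in each case without wild type replicate 1. They ran from -0.24 to 0.0411 for Cebpa, -0.0854 to 0.17 for Irf8, -0.0027 to 0.35 for Gfi1 and -0.18 to 0.0696 for Spi1, values too near 0 to give a direction. Other changes of sign were of Mpo (0.14) and Cebpa (0.0342) and Ms4a3 (0.53) by limma voom, of Irf8 with library size only (-0.0448), and of Cebpa (0.11) and Spi1 (0.0855) in the 6 libraries with Y-linked counts. Without wild type replicate 1 and KO replicate 3, the values were 0.46 for Mpo, 0.22 for Elane, 0.27 for Prtn3, 1.30 for Ms4a3 and 0.30 for Cebpe. The cause of these changes was not tested.

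The labels give replicate numbers but do not say whether these pair the mice. Deviations of same-numbered libraries correlated at 0.03, -0.01, -0.18 and -0.19, and 0 of 8 libraries correlated best with its own number. With so few mice and some outlying libraries, these values show no sign of pairing but cannot exclude it. With the replicate block, Mpo, Ms4a3, Ctsg and Elane gave 0.14, 0.73, 1.24 and -0.22, and 3 genes in all were called against 8. Depth limits Cebpe, at 6 to 59 counts per library, more than the other members.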

Other observations

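The genes nearest to Irf8 in profile over the 8 libraries, by the same measure, were Gm12945, Tmem214, Hgh1, Hk1 and Mtmr14, with root mean square differences of 0.08 to 0.10. Hk1, the hexokinase 1 gene, stood at 147, 177, 133 and 162 CPM in wild type replicates 1 to 4 and at 160, 161, 90.3 and 175 CPM in KO replicates 1 to 4. As in Irf8, KO replicate 3 was the lowest and wild type replicate 3 the next, a likeness for which Hk1 was picked.

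Cd48 encodes a surface marker that multipotent progenitors carry and most stem cells lack. It stood at 211, 35.2, 186 and 129 CPM in wild type replicates 1 to 4. KO replicates 1 to 4 stood at 258, 269, 269 and 218 CPM, without overlap (log2 fold change 0.86, adjusted p = 0.811 by edgeR). Wild type replicate 2 was the lowest in Cd48 and in Ctsg, but wild type replicate 3 was the lowest in Mpo, Elane, Prtn3 and Ms4a3. Hlf, a stem cell transcription factor gene, stood at 178 to 276 CPM in wild type and 118 to 161 CPM in KO, also without overlap (log2 fold change -0.65, adjusted p = 0.489 by edgeR). Slamf1, another SLAM family surface marker gene, had the largest log2 fold change of the stem and LSK list. It stood at 3.98 to 9.04 CPM in wild type and 9.25 to 11.9 CPM in KO, without overlap (log2 fold change 0.93, adjusted p = 0.670 by edgeR). Of the 10 genes of that list 0 were called, and 2 were higher and 1 lower in KO without overlap, against 4.19% of all tested genes in either direction. Cd48 was named after its values were seen.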
